A study of Arabidopsis thaliana with 12 samples.

Results

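Transcript levels in siliques of the *hub1-2* mutant (labelled *rdo4*, its older name) were compared with those in siliques of the *rdo3* mutant, 2 *Arabidopsis thaliana* mutants with reduced seed dormancy in the L*er* background. The 6 arrays of these mutants, 3 each, were selected by their genotype labels from the 12 arrays of the series, which also holds 3 arrays of *rdo2-1* and 3 of wild-type L*er*. Whole siliques, nearly ripe at 18 to 19 days after pollination, were collected from soil-grown plants in long days, and their RNA was hybridized to Affymetrix ATH1 arrays. The study describes its replicates as independent and biological. *hub1-2* carries a mutation in *HUB1*, whereas neither labels nor paper name the gene behind *rdo3*. Each mutant was represented by 1 allele.

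Seed dormancy is set up while seeds mature on the mother plant, and it keeps a ripe seed from germinating in conditions that would otherwise allow it. Abscisic acid promotes dormancy, gibberellin promotes germination, and DOG1 is a protein whose amount in the seed helps set the depth of dormancy. HUB1 is an E3 ligase that, with HUB2, places monoubiquitin on histone H2B, a mark associated with transcription by RNA polymerase II. A silique contains the fruit wall together with its seeds, so in these bulk samples fewer cells of a type and less RNA per cell cannot be told apart.

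*hub1-2* and *rdo3* siliques differed in 1657 of the 14785 probe sets tested (11.2%), of which 956 (6.47%) were higher and 701 (4.74%) lower in *hub1-2* siliques (limma, Benjamini-Hochberg adjusted p under 0.01). At least 2-fold differences were found for 323 of the higher and 314 of the lower probe sets. For all 1657, the 3 *hub1-2* arrays lay wholly above or wholly below the 3 *rdo3* arrays, as did 43.9% of all probe sets tested (24.8% with *hub1-2* above and 19.2% with *hub1-2* below). CyberT, the test used in the study, was recoded here, with settings and a filter that are not those of the study's own run. It called 2774 probe sets (18.8%), 1578 higher (10.7%) and 1196 lower (8.09%), and included 1637 of the limma calls. The median difference over all probe sets was 0.02 on the log2 scale, with a median absolute difference of 0.245. Log2 values correlated at 0.9938 to 0.9944 between *hub1-2* arrays, 0.9863 to 0.9945 between *rdo3* arrays, where replicate 2 stood somewhat apart, and 0.971 to 0.98 between the mutants. The number of arrays limits the precision of every value. A single gene could be named for 1348 of the called probe sets. The array annotation named 8149 tested probe sets, of which 10.3% were called. A further 1117 were named only through the study's list of genes changed in *hub1-2* or *rdo2-1*, of which 45.3% were called, so counts of named genes lean towards called ones.

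The L*er* arrays took no part in this test. For 1527 of the 1657 called probe sets (92.2%) the mean of L*er* lay nearer to *rdo3* than to *hub1-2*, against 67.7% of all probe sets tested. This held for 920 of the 956 higher (96.2%) and 607 of the 701 lower probe sets (86.6%). The median absolute distance from L*er* over the called probe sets was 0.81 in *hub1-2* and 0.18 in *rdo3* on the log2 scale.

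Among called probe sets of 1 gene with separate arrays and a mean above the median of all probe sets kept, the largest rise in *hub1-2* siliques was that of *AT1G01800*, a short-chain dehydrogenase family gene. Its intensity, in arbitrary units, was 836, 1076 and 1070 on the *hub1-2* arrays and 95.3, 92.3 and 82.1 on the *rdo3* arrays. The groups were far apart, with a log2 difference of 3.46 ± 0.13 (SE; limma adjusted p = 7.24e-06). *SWEET1*, a sugar transporter gene, measured 187, 115 and 145 in *hub1-2* siliques and 28.7, 27.5 and 25.6 in *rdo3* siliques (log2 difference 2.42 ± 0.19, limma adjusted p = 0.000165). *AT2G33830*, a gene of the dormancy- and auxin-associated family, measured 1664, 1667 and 2057 in *hub1-2* siliques and 312, 419 and 327 in *rdo3* siliques (2.35 ± 0.14, limma adjusted p = 4.67e-05). Every *hub1-2* array lay above every *rdo3* array for these genes. The stress-responsive gene *LTI78* (also *RD29A*) measured 418, 403 and 408 in *hub1-2* siliques and 73.7, 76.8 and 102 in *rdo3* siliques (2.3 ± 0.14, limma adjusted p = 7.13e-05). The others among the 12 largest rises of this kind ranged from 2.02 to 2.68 on the log2 scale, and were *AT1G02370*, *AT5G18470*, *AT1G01940*, *EDA10*, *SBI1*, *AT1G02080*, *FP6* and *AT4G32910*. *AT5G18470* encodes a lectin-domain protein and *FP6* a metal-binding farnesylated protein. Of the 12, 11 stayed called without each array in turn, and *EDA10* lost its call without *hub1-2* replicate 3 or *rdo3* replicate 3. A larger difference was called below that median for *AT1G68240*, at 4.29 on the log2 scale, with means of 172 ± 45.5 in *hub1-2* siliques and 8.63 ± 1.24 in *rdo3* siliques (SD, n = 3 each).

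By the same rule, the largest falls in *hub1-2* siliques exceeded the largest rises in size. Among them were a pair of germin-like protein genes, whose secreted products are related to the germins of cereal seeds. *AT3G04150* measured 20.8, 23.4 and 16.6 in *hub1-2* siliques and 514, 570 and 547 in *rdo3* siliques (log2 difference -4.76 ± 0.16, limma adjusted p = 3.68e-06). *AT3G04170* measured 89.1, 156 and 93.1 in *hub1-2* siliques and 2383, 2628 and 2568 in *rdo3* siliques (-4.53 ± 0.20, limma adjusted p = 1.39e-05). For both, the groups lay far apart, although *hub1-2* replicate 2 stood above the other *hub1-2* arrays for *AT3G04170*. The L*er* arrays spread more widely, at 310, 439 and 991 for *AT3G04150* and 1456, 2313 and 4225 for *AT3G04170*. *AT1G72570*, an AP2-domain transcription factor gene, fell to 23.2, 21.6 and 8.86 in *hub1-2* siliques, against 311, 300.2 and 305 in *rdo3* siliques (-4.22 ± 0.33, limma adjusted p = 0.000174). *EXPA15*, an expansin gene of the cell wall, fell to 130, 53.7 and 70.6 in *hub1-2* siliques, against 864, 892 and 962 in *rdo3* siliques (-3.52 ± 0.28, limma adjusted p = 0.000181).

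Of the 12 largest falls, 3 were of lipid transfer protein family genes, which were singled out after their values were seen. *AT1G62500* measured 44.6, 27.3 and 35.5 in *hub1-2* siliques and 517, 522 and 391 in *rdo3* siliques (log2 difference -3.75 ± 0.20, limma adjusted p = 4.16e-05). *AT5G38160* measured 85.1, 32.6 and 117 in *hub1-2* siliques and 2029, 1864 and 529 in *rdo3* siliques (-4.20 ± 0.59, limma adjusted p = 0.00202). In *rdo3*, replicate 3 was the low array for *AT5G38160* and also for its neighbour *AT5G38170*, which differed by -3.80 ± 0.64 (limma adjusted p = 0.00433). The *AT5G38170* call was lost without *rdo3* replicate 1 or any of the 3 *hub1-2* arrays. A further gene of this family nearby, *AT5G38195*, was called in the other direction, at 120.4, 163 and 222 in *hub1-2* siliques and 80.6, 60.9 and 70.6 in *rdo3* siliques (1.22 ± 0.23, limma adjusted p = 0.00645), a call lost without *hub1-2* replicate 2 or 3 or *rdo3* replicate 1 or 3. Germin-like and lipid transfer protein genes belong to families of related sequences, and probe cross-hybridization within them was not tested. The other falls, from -4.67 to -2.78, were those of *AT1G62210*, *AT2G47120*, *AT1G04660*, *AT5G16230* and the chloroplast gene *psbC*.

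**Figure D1:**
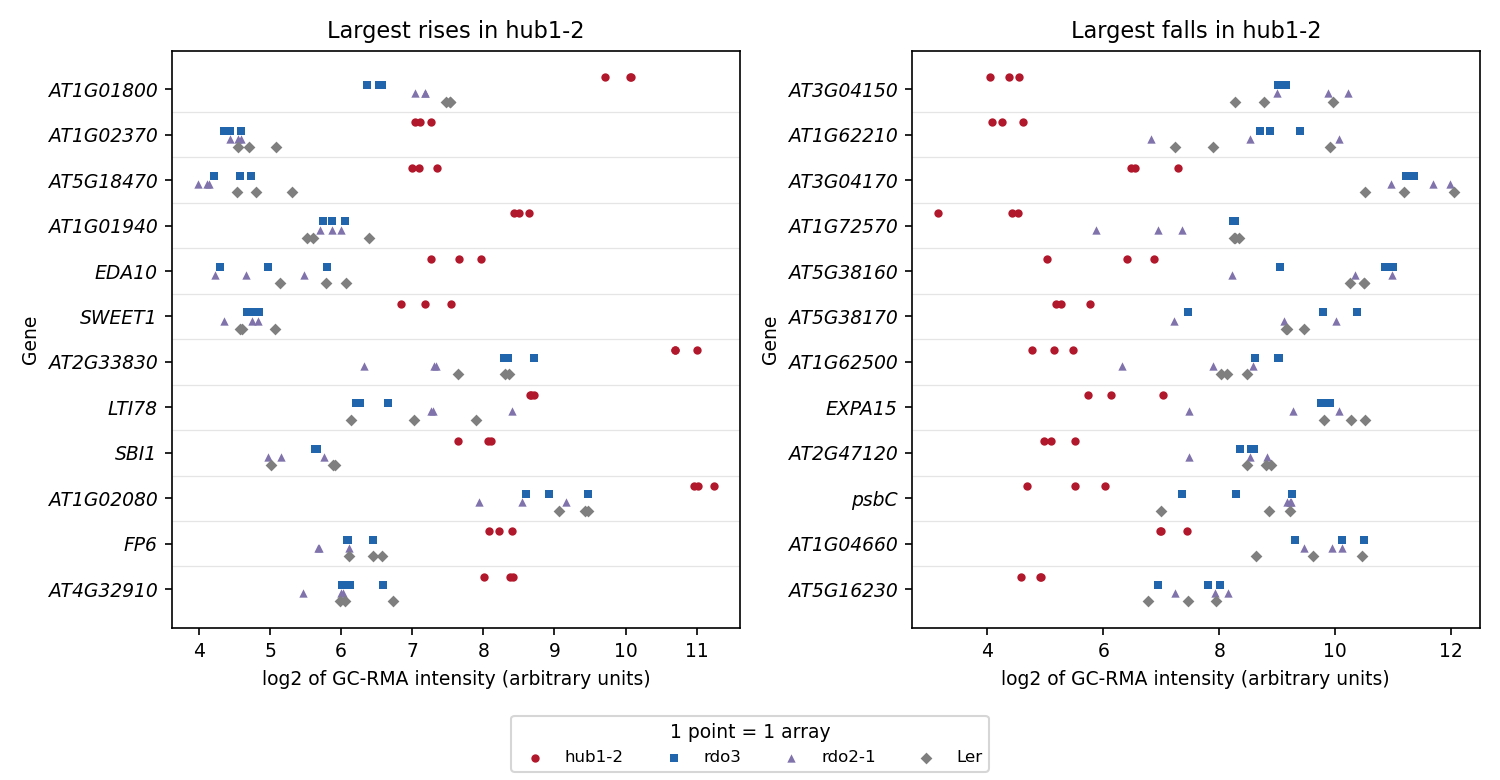
Log2 intensity on each array (x axis, arbitrary units) for the 12 largest rises (left) and 12 largest falls (right) in *hub1-2* siliques, with genes on the y axis and 1 point per array for *hub1-2*, *rdo3*, *rdo2-1* and L*er*. For each gene the 3 *hub1-2* arrays stand apart from the 3 *rdo3* arrays, by 3.46 on the log2 scale for *AT1G01800* and by -4.76 for *AT3G04150*.

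Of the 12 largest rises, 6 were genes of a single stretch at the start of chromosome 1, *AT1G01800*, *AT1G02370*, *AT1G01940*, *EDA10*, *SBI1* and *AT1G02080*. The stretch was noticed in these data and is given as a description, with no test of the stretch itself. It was delimited through windows of 20 consecutive measured genes with at least 10 called higher, and ran from *AT1G01640* to *AT1G02640*. In gene order, 106 protein-coding genes of the RefSeq annotation (TAIR10.1) lie from its first to its last gene. A probe set naming 1 gene existed for 65 of these, and 52 passed the filter on low values.

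Within the stretch, 44 of the 52 measured genes were called higher in *hub1-2* siliques and 0 were called lower, where 6.47% of all probe sets tested were called higher. All 52 had a higher mean in *hub1-2*, 47 with no overlap between the arrays of the mutants. The median log2 difference was 1.24, the quartiles were 0.911 and 1.62, and the range was 0.035 to 3.46. Of the 33 genes named by the array annotation alone, 26 were called higher. Among the 20 measured genes just before the stretch, 0 were called higher and 2 lower, with a median difference of -0.08. Among the 20 just after it, 2 were called higher and 1 lower, with a median of 0.09. The most crowded window held 19 genes called higher. Windows outside the stretch held at most 9, a limit set by the threshold that delimited the stretch. The limit is therefore no separate evidence that the stretch stands alone.

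The genes of the stretch have various roles, and those described here were chosen after their values were seen. *PEX11C*, which acts in peroxisome division, measured 2063, 2122 and 2057 in *hub1-2* siliques and 584, 562 and 605 in *rdo3* siliques (log2 difference 1.83, limma adjusted p = 8.46e-06). *TOC33*, a receptor for protein import into chloroplasts, measured 1085, 1129 and 1130 in *hub1-2* siliques and 433, 438 and 433 in *rdo3* siliques (1.36, limma adjusted p = 4.67e-05). *MAGO*, a core component of the exon junction complex, measured 4221, 4464 and 4197 in *hub1-2* siliques and 2169, 2026 and 2046 in *rdo3* siliques (1.05, limma adjusted p = 4.67e-05). The arrays of each mutant were tightly grouped for all of these. *FUS5*, a COP9 signalosome subunit gene, *MC1*, a metacaspase gene, and *HFR1*, a bHLH gene of light signaling, were also called higher, *FUS5* by 1.45, *MC1* by 1.0 and *HFR1* by 1.5 on the log2 scale. The NAC factor gene *ATAF1* had one of the smaller called differences, at 0.47 (limma adjusted p = 0.00313), and its call was lost without *hub1-2* replicate 1 or 2 or *rdo3* replicate 1 or 3.

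The other genotypes did not share the higher levels in this stretch. Over its 52 genes, the median log2 difference from *rdo3* was -0.02 in *rdo2-1* and -0.07 in L*er*, and for 43 of the 44 called genes every *hub1-2* array lay above all 9 other arrays. Of the 44 called genes, 37 kept the call without each array in turn. The stretch held 5.68% of the 775 nuclear genes called higher. With it left out, 8.67% of the measured genes of chromosome 1 were called higher, against 7.85% on chromosomes 2 to 5. What gave the stretch its higher levels was not tested.

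**Figure D2:**
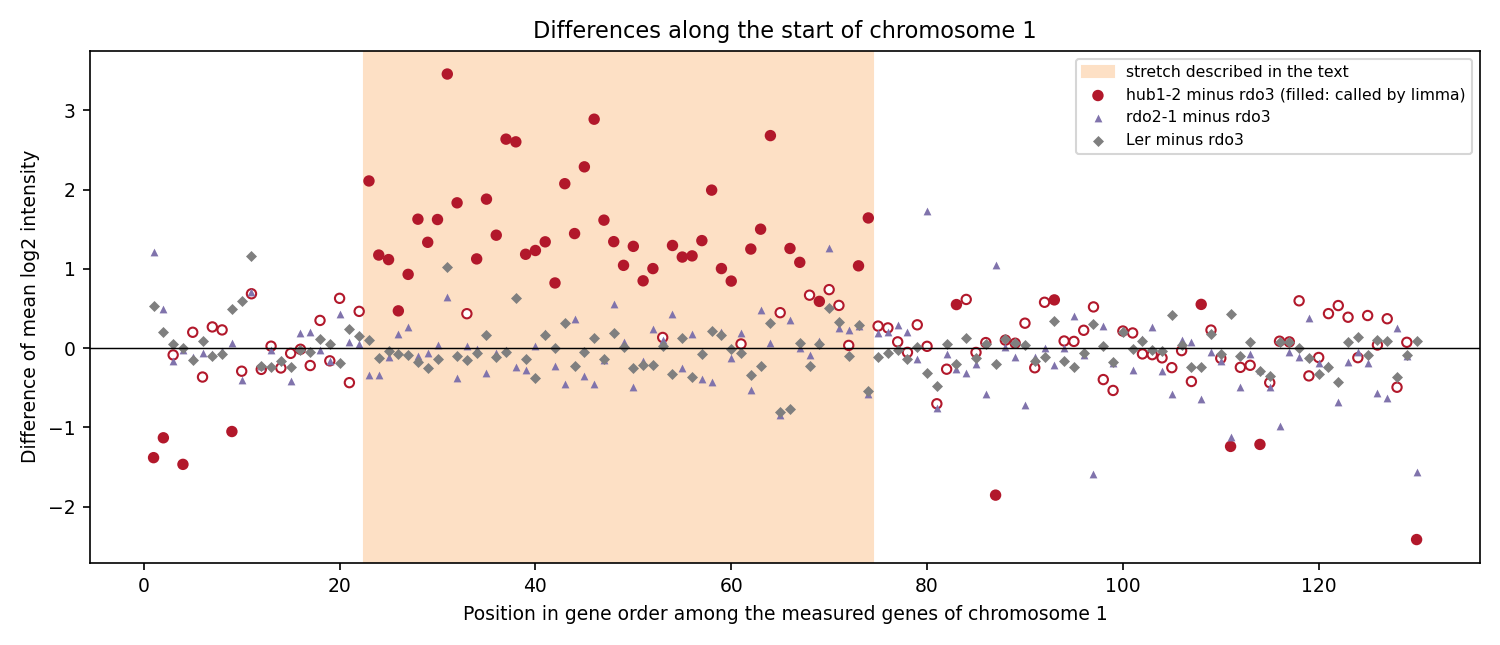
Difference of mean log2 intensity from *rdo3* (y axis) for the first measured genes of chromosome 1 in gene order (x axis), shown for *hub1-2* (circles, filled where limma called the gene), *rdo2-1* (triangles) and L*er* (diamonds). In the shaded stretch 44 of 52 genes were called higher in *hub1-2*, while the medians of *rdo2-1* and L*er* lay at -0.02 and -0.07.

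Heat shock genes had the most members called higher among the gene lists. They encode chaperones, their regulators and the small heat shock proteins that accumulate in maturing seeds. All 18 measured members had higher means in *hub1-2* siliques, and limma called 13 of them higher (against 6.47% of all probe sets) and 0 lower, with a list median of 1.08 on the log2 scale against 0.02 over all probe sets. *HSP70T-2* measured 3201, 3023 and 2939 in *hub1-2* siliques and 1254, 971 and 1116 in *rdo3* siliques (log2 difference 1.46, limma adjusted p = 0.000103). *AT5G51440*, a small heat shock protein gene, measured 72.7, 62.2 and 52.3 in *hub1-2* siliques and 18.1, 10.6 and 17 in *rdo3* siliques (2.06 ± 0.23, limma adjusted p = 0.000744). The groups did not overlap for either gene, and *rdo3* replicate 2 was the lowest array for both. *HSP101*, a disaggregating chaperone gene, differed by 0.87, *HSP90.1* by 1.02 and the mitochondrial chaperonin gene *HSP60* by 1.43, and each was called. For *HSP101* L*er* lay nearer to *hub1-2*, with means of 2767 in *hub1-2* siliques, 1530 in *rdo3* siliques and 2379 in L*er*. The *rdo2-1* mean was lower still, at 1289. L*er* lay nearer to *rdo3* for the 12 other called members. The regulator gene *HSFA2* was not called (161, 146 and 118 in *hub1-2* siliques, 104, 30.7 and 61.7 in *rdo3* siliques, limma adjusted p = 0.0409). With gene names from the array annotation alone, 6 of 10 were called higher. Leaving out 1 array at a time gave 8 to 15 members called higher, with 8 without *hub1-2* replicate 2 or *rdo3* replicate 3.

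Genes of dormancy and seed maturation went in both directions. *DOG1* measured 203, 204 and 206 in *hub1-2* siliques and 922, 999 and 1042 in *rdo3* siliques, against 712, 521 and 599 in *rdo2-1* and 1025, 1538 and 1016 in L*er*. The *hub1-2* arrays were nearly identical and lay below all others, with a log2 difference from *rdo3* of -2.27 ± 0.09 (limma adjusted p = 9.05e-06). *DPBF2*, encoding the seed transcription factor bZIP67, measured 47.3, 42.2 and 37.5 in *hub1-2* siliques and 137, 130 and 132 in *rdo3* siliques (-1.66 ± 0.14, limma adjusted p = 0.000203). *EEL*, another bZIP gene of late embryogenesis, was lower by a smaller amount (641, 540 and 507 in *hub1-2* siliques, 863, 951 and 877 in *rdo3* siliques, log2 difference -0.68 ± 0.11, limma adjusted p = 0.00365), and lost its call without *hub1-2* replicate 2 or 3 or *rdo3* replicate 1 or 3. *E12A11*, better known as *MFT*, a regulator of germination, went the other way. It measured 393, 358 and 332 in *hub1-2* siliques and 81.3, 83.3 and 111 in *rdo3* siliques (1.99 ± 0.15, limma adjusted p = 0.000161). In all, 1 of the 9 measured members was called higher (6.47% of all probe sets) and 3 lower (4.74%). Of these 4 called genes, 3 were named through the study's list. With the annotation's names alone, 0 of 4 were called higher and 1 lower. *FUS3*, a master regulator of seed maturation, measured 70.9, 78.8 and 46.6 in *hub1-2* siliques and 148, 134 and 97.7 in *rdo3* siliques and was not called (limma adjusted p = 0.019).

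Called genes of the gibberellin and abscisic acid lists were all higher in *hub1-2* siliques. In the gibberellin list 3 of 10 measured members were called higher, against 6.47% of all probe sets, and 0 lower. *GA3*, the *ent*-kaurene oxidase gene of gibberellin synthesis, measured 883, 926 and 938 in *hub1-2* siliques and 367, 338 and 363 in *rdo3* siliques (log2 difference 1.36 ± 0.09, limma adjusted p = 8.11e-05). *KAO2*, which acts at a later step of synthesis, measured 31.5, 28.4 and 32.7 in *hub1-2* siliques and 14.1, 13.9 and 11 in *rdo3* siliques (1.26 ± 0.15, limma adjusted p = 0.000919). The arrays of the mutants were well apart for both. *GA2OX6*, a gibberellin-inactivating oxidase gene, differed by 1.26 ± 0.19 (limma adjusted p = 0.00246), lies in the stretch of chromosome 1, and lost its call without *rdo3* replicate 3 or any *hub1-2* array. All 3 genes were named through the study's list, of which 26.4% were called higher over all such probe sets. With the annotation's names alone, 0 of 4 were called higher. The gibberellin receptor gene *GID1A* differed by 0.04 (95% interval -0.18 to 0.25). Among 4 measured genes of abscisic acid, all named through the study's list, 1 was called by limma, *CYP707A2*, whose enzyme breaks abscisic acid down. It measured 592, 463 and 588 in *hub1-2* siliques and 195, 274 and 192 in *rdo3* siliques (1.32 ± 0.17, limma adjusted p = 0.00134). *ABA1*, an enzyme gene of abscisic acid synthesis, differed by -0.18 (95% interval -0.4 to 0.05).

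Genes of H2B ubiquitination and transcript elongation had 4 of 9 measured members called higher, against 6.47% of all probe sets, and 0 lower. *HUB1* itself measured 160, 169 and 212 in *hub1-2* siliques and 45.7, 84.8 and 56.7 in *rdo3* siliques (log2 difference 1.57 ± 0.23, limma adjusted p = 0.00244). The transcript of the mutated gene was thus not reduced in *hub1-2*, so its level does not check the labels. *ELF7*, a subunit gene of the RNA polymerase II associated factor complex, measured 191, 208 and 206 in *hub1-2* siliques and 90.5, 143 and 93.2 in *rdo3* siliques (0.92 ± 0.18, limma adjusted p = 0.00889). *SDG25* (*ATXR7*), a histone methyltransferase gene, differed by 0.99 and *HTB4*, an H2B gene, by 0.41. *HUB2* was not called (19.3, 18.9 and 20.1 in *hub1-2* siliques, 13.3, 13.5 and 14.6 in *rdo3* siliques, limma adjusted p = 0.0162). None of the 4 calls held without each array in turn, and 3 of the 4 genes were named through the study's list. With the annotation's names alone, 1 of 5 was called higher.

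Storage protein genes, among the most abundant transcripts of a maturing seed, showed small differences. Of 16 measured genes of storage proteins and oil, limma called 0 higher and 1 lower (6.25%, near the 4.74% of all probe sets), and CyberT called 4 lower (8.09% of all probe sets). The storage albumin gene *SESA2* differed by -0.14 (95% interval -0.29 to 0.01) and *SESA5* by 0.06 (95% interval -0.09 to 0.21). The exception was *KCS18* (*FAE1*), the elongase gene for very long chain fatty acids of seed oil, which measured 86.2, 71.2 and 67.0 in *hub1-2* siliques and 309, 337 and 293 in *rdo3* siliques (-2.07 ± 0.14, limma adjusted p = 9.33e-05). Its groups were far apart. Of 31 measured late embryogenesis abundant genes, 1 was called higher and 7 lower, 22.6% against 4.74% of all probe sets. *AT3G02480* measured 8737, 9200 and 8510 in *hub1-2* siliques and 16152, 15781 and 15083 in *rdo3* siliques (-0.83 ± 0.05, limma adjusted p = 4.67e-05), and it was the only call of these 8 that held without each array in turn. The number called lower in this list was 2 without the intensity trend and 3 with the spread estimated over 9 mutant arrays. The dehydrin gene *LEA* differed by -0.04 (95% interval -0.14 to 0.07).

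**Figure D3:**
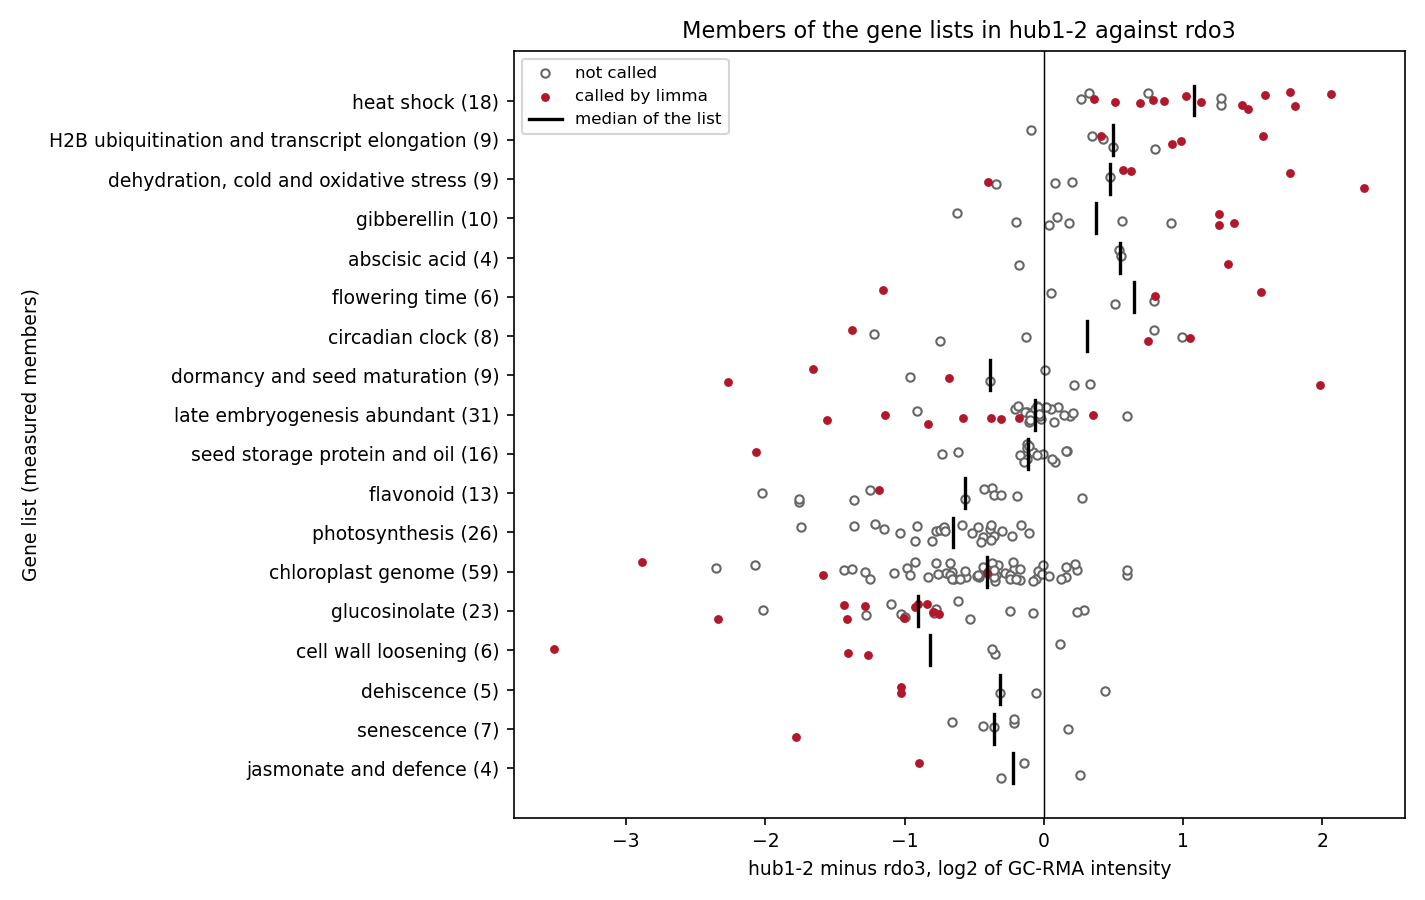
Log2 difference between *hub1-2* and *rdo3* (x axis) for each measured member of 18 gene lists (y axis, number measured in brackets), with filled points for limma calls, open points for the rest and a bar at each list's median. The heat shock list lies wholly above 0 with a median of 1.08 and the photosynthesis list wholly below 0 with a median of -0.65, the first with 13 calls and the second with 0.

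Glucosinolate genes, which make and handle sulfur-rich defense compounds of the Brassicaceae, had 10 of 23 measured members called lower in *hub1-2* siliques (against 4.74% of all probe sets) and 0 called higher, with a list median of -0.90. *IPMI1*, an isomerase gene of methionine chain elongation, measured 588, 344 and 455 in *hub1-2* siliques and 1353, 1025 and 1250 in *rdo3* siliques (log2 difference -1.41 ± 0.19, limma adjusted p = 0.00175). *CYP83A1*, a core pathway enzyme gene, measured 2431, 1879 and 1803 in *hub1-2* siliques and 3497, 3355 and 3350 in *rdo3* siliques (-0.75, limma adjusted p = 0.00239). *MYB28*, the regulator gene of the aliphatic branch, measured 235, 181 and 174 in *hub1-2* siliques and 385, 324 and 388 in *rdo3* siliques (-0.90, limma adjusted p = 0.00381). Every *rdo3* array exceeded every *hub1-2* array for these 3 genes. The transporter genes *GTR1* and *GTR2* had values in the other direction, at 0.29 and 0.24, and were not called. Of the 10 calls, 9 were of genes named through the study's list, of which 18.9% were called lower over all such probe sets. With the annotation's names alone, 1 of 8 was called lower. The number called lower was 0 without *hub1-2* replicate 3 or *rdo3* replicate 3, 3 without *hub1-2* replicate 2 or *rdo3* replicate 1, and 12 without *rdo3* replicate 2.

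All 26 measured photosynthesis genes had lower means in *hub1-2* siliques, but limma called 0 of them. The list median was -0.65, and CyberT called 11 lower (8.09% over all probe sets). *LHCB5*, a light-harvesting protein gene, measured 132, 68.8 and 63.5 in *hub1-2* siliques and 450.1, 184 and 261 in *rdo3* siliques (log2 difference -1.74, limma adjusted p = 0.0105). The *rdo3* arrays spread widely, and the median log2 intensity of the list was 8.14, 7.63 and 7.49 on the *hub1-2* arrays and 9.10, 7.77 and 8.44 on the *rdo3* arrays. *rdo3* replicate 2 thus lay within the *hub1-2* range, and without it limma called 10 members lower.

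Fruit wall markers moved in the same direction as these lists. Of 10 markers of the silique wall, 3 were measured, 2 of them called lower by limma and 3 by CyberT. Their summed intensity was 9716 to 11574 in *hub1-2* siliques and 12303 to 13573 in *rdo3* siliques. Nearly all of that sum came from the marker other than *SHP2* and *ALC*, which differed by -0.32 on the log2 scale and was not called by limma. *SHP2*, a MADS-box gene of valve margin formation, measured 133, 103 and 155 in *hub1-2* siliques and 254, 247 and 290.4 in *rdo3* siliques (log2 difference -1.03 ± 0.16, limma adjusted p = 0.00356). *ALC*, a bHLH gene of the separation layer, measured 21.5, 22.2 and 20.4 in *hub1-2* siliques and 48.5, 39.7 and 43.0 in *rdo3* siliques (-1.03 ± 0.14, limma adjusted p = 0.00167). The groups did not overlap for either gene. The *SHP2* call was lost without *hub1-2* replicate 1 or 2 or *rdo3* replicate 1 or 3, and the *ALC* call without replicate 3 of either mutant. The summed intensity of 3 measured embryo markers overlapped between the mutants, at 47086 to 51670 in *hub1-2* siliques and 49794 to 51587 in *rdo3* siliques. limma called 0 of these, while CyberT called *FUS3* (-0.96) and *SESA1* (-0.17) lower. The 1 measured marker of endosperm (*KTI1*, -0.14) was called by neither test. The 1 measured marker of seed coat, *ARA12*, was separate between the mutants, at 391, 362 and 394 in *hub1-2* siliques and 257, 284 and 279 in *rdo3* siliques (0.49), and was called higher by CyberT but not by limma. Measured markers were only those that had passed the filter on low values, so their levels cannot show whether a tissue was missing. The part of the fruit wall in the lower lists was not tested.

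Of 6 measured flowering time genes, 2 were called higher (6.47% of all probe sets), 1 lower (4.74%) and 3 not at all. All 3 called genes were named through the study's list, and with the annotation's names alone 0 of 2 were called. *FLC*, the MADS-box repressor of flowering, measured 433, 432 and 361 in *hub1-2* siliques and 225, 238 and 240.1 in *rdo3* siliques (log2 difference 0.80 ± 0.11, limma adjusted p = 0.00213). Its level in *rdo3* was close to that of L*er* (215, 243 and 215), while *rdo2-1* was lowest (56.7, 65.5 and 54.2). *MAF5*, a relative of *FLC*, measured 19.1, 26.1 and 19.9 in *hub1-2* siliques and 6.88, 7.35 and 7.63 in *rdo3* siliques (1.56 ± 0.14, limma adjusted p = 0.00034), with the *rdo3* values below the array median. *FT*, whose protein promotes flowering, was lower, at 1064, 825 and 1392 in *hub1-2* siliques and 2353, 2231 and 2560 in *rdo3* siliques (-1.15 ± 0.17, limma adjusted p = 0.00239). The *FLC* call was lost without *hub1-2* replicate 1 or 2 or *rdo3* replicate 3, and the *FT* call without *hub1-2* replicate 1 or *rdo3* replicate 3.

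**Figure D4:**
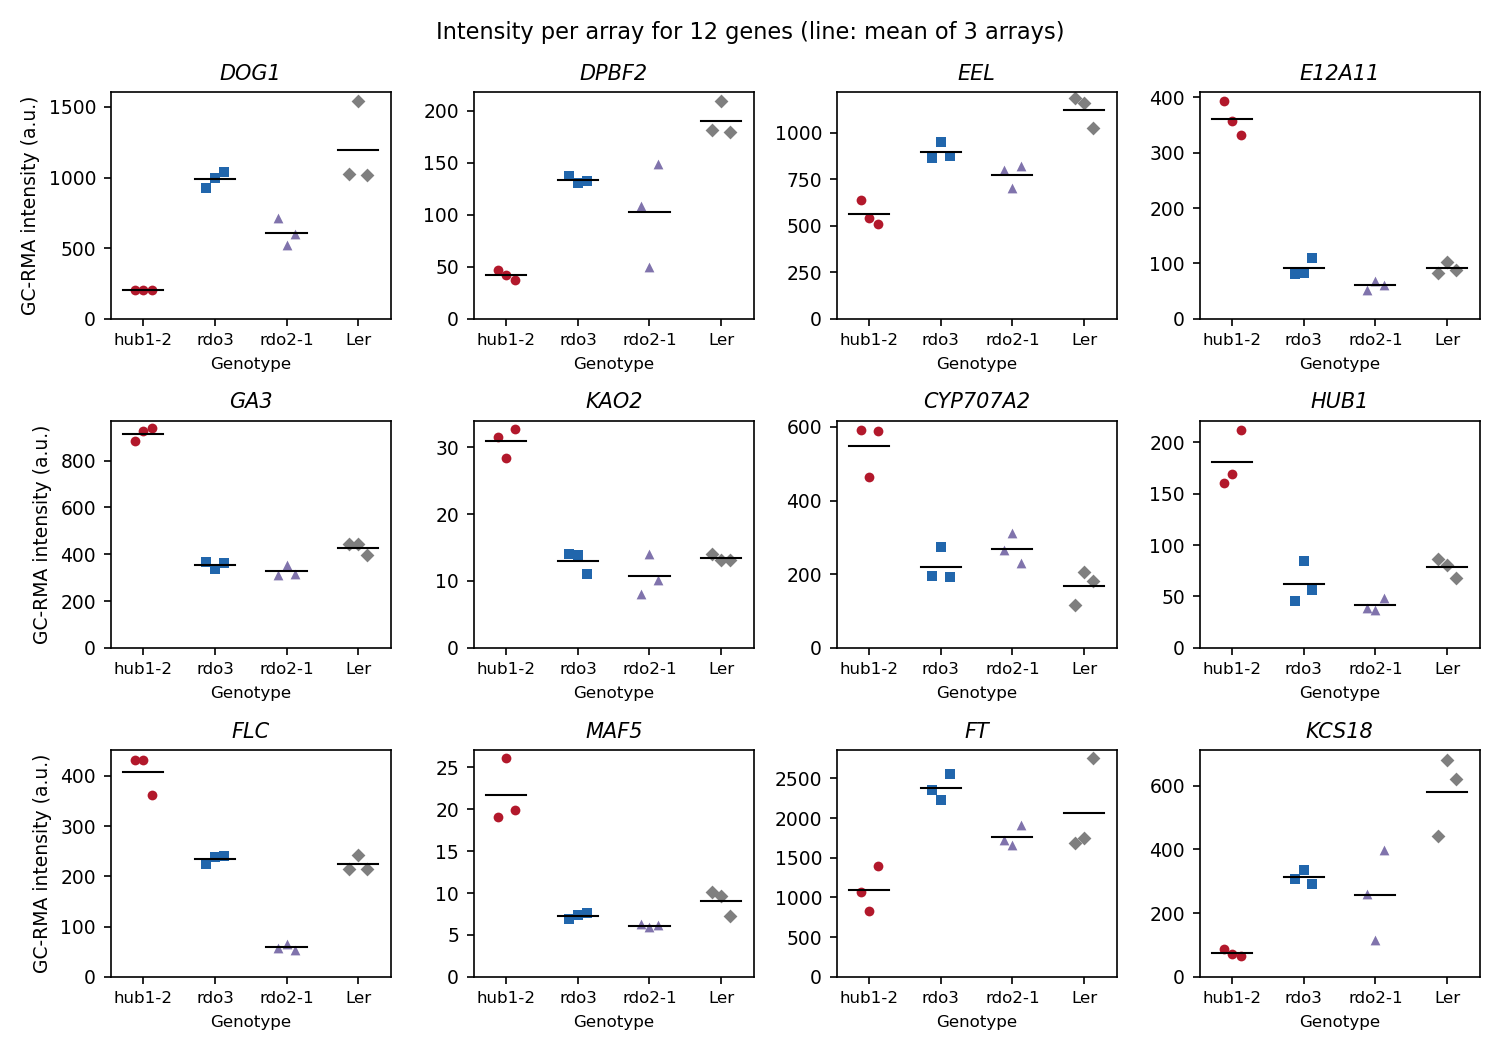
Intensity on each array (y axis, arbitrary units, from 0) of 12 genes in *hub1-2*, *rdo3*, *rdo2-1* and L*er* (x axis), with 1 point per array and a line at the mean of 3 arrays. *DOG1* lies at 203 to 206 in *hub1-2* against 922 to 1042 in *rdo3*, and *GA3* at 883 to 938 in *hub1-2* against 338 to 367 in *rdo3*.

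A minority of the differences lay with *rdo3* rather than *hub1-2* in relation to L*er*. For 130 of the 1657 called probe sets L*er* was nearer to *hub1-2*, 36 of the higher and 94 of the lower ones. The genes named here were chosen after their values were seen. *AT1G54410*, a dehydrin family gene, measured 277, 195 and 467 in *hub1-2* siliques and 807, 1030 and 776 in *rdo3* siliques, against 317, 366 and 441 in L*er* (log2 difference -1.56 ± 0.28, limma adjusted p = 0.00578). Its call was lost without *hub1-2* replicate 1 or 2 or *rdo3* replicate 1 or 3. *AT3G51660* measured 555, 518 and 422 in *hub1-2* siliques and 147, 256 and 202 in *rdo3* siliques (1.33 ± 0.20), against 414, 436 and 710.1 in L*er*, and its call was lost without *hub1-2* replicate 1 or 2 or *rdo3* replicate 3. In both cases the *rdo3* arrays lay outside the range of the *hub1-2* and L*er* arrays. *XTH18*, a cell wall remodeling enzyme gene, measured 23.4, 17.2 and 30.7 in *hub1-2* siliques and 61.0, 64.2 and 43.7 in *rdo3* siliques, against 17.7, 26.8 and 31.9 in L*er* (-1.26 ± 0.24, limma adjusted p = 0.00722). Its call was lost without any 1 array except *hub1-2* replicate 3. For *AT1G54410*, *AT3G51660* and *XTH18* the *rdo2-1* arrays also lay apart from the *rdo3* arrays. Not all genes of this kind were particular to *rdo3*, since for some *rdo2-1* lay on the same side, as for *HSP101*. *STS* had means of 165 in *hub1-2* siliques, 80.5 in *rdo3*, 57.0 in *rdo2-1* and 158 in L*er*. The *STS* call was lost without *rdo3* replicate 1 or 3 or any *hub1-2* array.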

How the data were processed

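The authors processed the ATH1 arrays with GC-RMA and deposited linear intensity values per array for 22810 probe sets. The sources used here do not state which arrays were jointly normalized. The 64 control probe sets were left out, log2 values were taken without a pseudocount, and 14785 probe sets were kept, the top 65% when ranked by the second-largest of their 6 values. limma (version 3.58.1, R 4.3.3) compared 3 *hub1-2* with 3 *rdo3* arrays with an intensity trend, and calls had a Benjamini-Hochberg adjusted p under 0.01. CyberT was recoded with 50 probe sets on each side and a prior weight of 10, settings that the paper does not give. The test was also run on simulated data, drawn with limma's own fitted variances and therefore following its model. There limma recovered 32% of 50 1.5-fold, 76% of 100 2-fold and 96% of 50 4-fold changes among 14785 probe sets, so smaller changes were missed more often. The share changed was far below the share called in the data, and the Benjamini-Hochberg adjustment depends on that share. These rates are therefore no estimate of recovery in the comparison itself. Names came from the array annotation and then from the study's list of changed genes. Named genes were the 12 largest rises and falls (called, arrays separate, 1 gene, mean above the median), the 3 largest called in each direction of each list and genes the paper discusses; other list members were chosen as examples after their values were seen. Members and lists were chosen with earlier results of these data known. Promoter motifs were not analysed here. Alternatives were other filters, tests, scalings, thresholds, a replicate block and arrays left out.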

Additional observations from a re-analysis of the deposited data

How the results depend on the processing

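The number of probe sets called depended on the test and on the number of arrays. CyberT called 2774 (1578 higher, 1196 lower), an adjusted p under 0.05 called 3926 (2309 higher, 1617 lower), and requiring at least 2-fold left 637 (323 higher, 314 lower). Leaving out 1 array at a time gave 523 to 2349 calls, 263 to 1401 higher and 260 to 948 lower. The lowest count came without *rdo3* replicate 3 and the highest without *rdo3* replicate 2. The count was 759, 653 and 626 without *hub1-2* replicate 1, 2 and 3, and 949 without *rdo3* replicate 1. Deviations of same-numbered arrays from their group means correlated at 0.126, -0.025 and -0.044, and those of differently numbered arrays at -0.28 to 0.26. With 3 arrays per mutant, these values cannot settle whether replicate numbers pair the samples. A fit with the replicate number as a block called 960 (509 higher, 451 lower). Under each of the other alternatives (filters, scaling, a pseudocount of 16, no trend, the 9 mutant arrays, leaving out probe sets with the suffixes _s_at and _x_at, and, added after seeing the data, no genes of the chromosome 1 stretch) the counts stayed within 1.5 times the main ones. Higher calls made up 57.7% of all calls as deposited and 48% after median centring. Of the 64 called genes named by the rule, 35 stayed called without each array in turn and 32 under all alternatives, and 0 reversed. The table has no detection calls, so low intensities could not be set against background.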

Other observations

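Of 8 measured circadian clock genes, 2 were called higher (*ELF3* and *PRR3*, 6.47% of all probe sets) and 1 lower (*LHY*, 4.74%), and none of the 3 calls held without each array in turn. All 3 were named through the study's list, and with the annotation's names alone 0 of 2 were called. *LHY*, a morning-phased transcription factor gene, measured 154, 158 and 108 in *hub1-2* siliques and 306, 468 and 325 in *rdo3* siliques (log2 difference -1.38 ± 0.21, limma adjusted p = 0.00261). *ELF3*, an evening-phased gene, measured 141, 127 and 130.2 in *hub1-2* siliques and 48.6, 84.7 and 62.9 in *rdo3* siliques (1.05 ± 0.20, limma adjusted p = 0.00732). The groups did not overlap for either gene, and the hour of harvest is stated neither in the labels nor in the paper. Of 59 measured genes of the chloroplast genome, 51 had lower means in *hub1-2* siliques, with a median of -0.41, and limma called 3 lower (*psbM*, *psbZ* and *psbC*) and 0 higher, a share of 5.08% lower that is near the 4.74% of all probe sets. CyberT called 12 lower and 1 higher. *psbC*, a photosystem II antenna gene, measured 65.3, 45.6 and 25.8 in *hub1-2* siliques and 611, 165 and 311 in *rdo3* siliques (-2.89 ± 0.48, limma adjusted p = 0.0041). Its call, like that of *psbZ*, was lost without *hub1-2* replicate 2 or 3 or *rdo3* replicate 3. The *psbM* call was lost without any 1 array except *rdo3* replicate 2.

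Genes of flavonoid synthesis, which gives pigments of the seed coat, had lower means in *hub1-2* siliques for 12 of 13 measured members. limma called 1 lower, *TT5* (7.69%, against 4.74% of all probe sets), and CyberT called 6 lower (against 8.09%). *TT4*, the chalcone synthase gene, measured 7.81, 15.3 and 9.68 in *hub1-2* siliques and 91.2, 14.3 and 59.9 in *rdo3* siliques, and was not called (limma adjusted p = 0.0399). *rdo3* replicate 2 overlapped the *hub1-2* arrays there, and without it limma called 6 members lower. The *TT5* call was lost without any other single array.

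Of the remaining lists, the one for dehydration, cold and oxidative stress had 4 of 9 measured members called higher (*LTI78*, *RAP2.6*, *GolS1* and *CAT3*), against 6.47% of all probe sets. It had 1 called lower (*STZ*, a zinc finger gene), against 4.74%, and the *STZ* call alone of these 5 did not hold without each array in turn. All 4 genes called higher were named through the study's list, of which 26.4% were called higher over all such probe sets. With the annotation's names alone, 0 of 2 were called higher. The *RAP2.6* and *GolS1* calls were lost with the spread estimated over 9 mutant arrays. Cell wall loosening had 3 of 6 called lower (*EXPA15*, *XTH18* and *XTH33*), senescence 1 of 7 (*NAP*), dehiscence 2 of 5 (*SHP2* and *ALC*) and jasmonate and defense 1 of 4 (*LOX2*). These shares stand against 4.74% of all probe sets, and 0 were called higher in these lists. Only the calls of *EXPA15* and *LOX2* held without each array in turn, and the *XTH33* mean in *hub1-2* lay below the array median.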
